A study of Rattus norvegicus with 11 samples.

Results

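Microglia are the resident macrophages of the brain, and 10 genes widely used as their markers were examined in rat hippocampus: Aif1, Csf1r, Ctss, C1qa, C1qb, C1qc, Itgam, Tyrobp, Cx3cr1 and Cd68. Every probe set of the array with 1 of these names as its single platform gene symbol was taken. The array names 10412 genes in this way. All 10 markers had a probe set, and together they had 11 of the array's 15923 probe sets, because Aif1 had 2 and the other genes 1 each. The rule uses gene names and no measured value, but the genes were proposed with earlier results of these data known.

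Hippocampal total RNA was hybridised to 11 arrays. Rats fed a control diet gave 6 of them, and rats fed a ketogenic diet gave the other 5. Ketogenic feed replaces most carbohydrate with fat, and the labels describe it as protecting against seizures. The labels used here give no strain, age, sex or length of feeding, and they do not say whether each sample is a separate animal, so each p-value reflects only how these samples vary, which may be technical. The title of ketogenic replicate 3 ends in s2b, while all other titles end in s2. The design asks which transcripts differ in level between the diets.

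Microglia live on signals through the receptor Csf1r, and they read the neuronal chemokine Cx3cl1 through Cx3cr1. Their adaptor Tyrobp carries signals from receptors such as Trem2, and the integrin Itgam binds complement fragments. They are the main source of C1q in brain, which starts the classical complement pathway and tags synapses for removal, and they digest what they take up in lysosomes that hold Ctss and Cd68.

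Log2 signals after quantile normalization between arrays are used below unless deposited values are named. A probe set was tested when its mean over all arrays was at least 5.17, which left out the dimmest 25%. It is described as called at an adjusted p under 0.05 in limma, where p was adjusted by Benjamini and Hochberg's method across the 11899 that were tested. Of the 11 marker probe sets, 9 were tested, for 8 of the genes, and those of Itgam and Cd68 were not.

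Microglial markers did not move together between the diets. Aif1 and Csf1r fell on the ketogenic diet, Ctss rose, and the other 6 tested probe sets were not called. Of the 9 tested probe sets, 1 was called higher and 2 lower, against 16.5% called among all tested probe sets, 8.62% higher and 7.87% lower. Over all probe sets that was 1026 higher and 936 lower, and 1076 and 1736 on the values as deposited. The median log2 fold change of the 9 was -0.06, and that of all tested probe sets was -0.0041. Signs were positive for 4 and negative for 5. In 0 of the 9 probe sets were the diets free of overlap, against 6.99% of all tested probe sets (3.91% with ketogenic arrays higher and 3.08% lower). None of the 3 was called with RNA quality ratios as covariates, and Ctss changed sign there. With the spike-in level of the arrays as covariate, 0 to 3 marker probe sets were called, depending on which of 6 definitions of that level was used. In whole hippocampus, fewer microglia and less RNA per cell cannot be told apart.

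**Figure D1:**
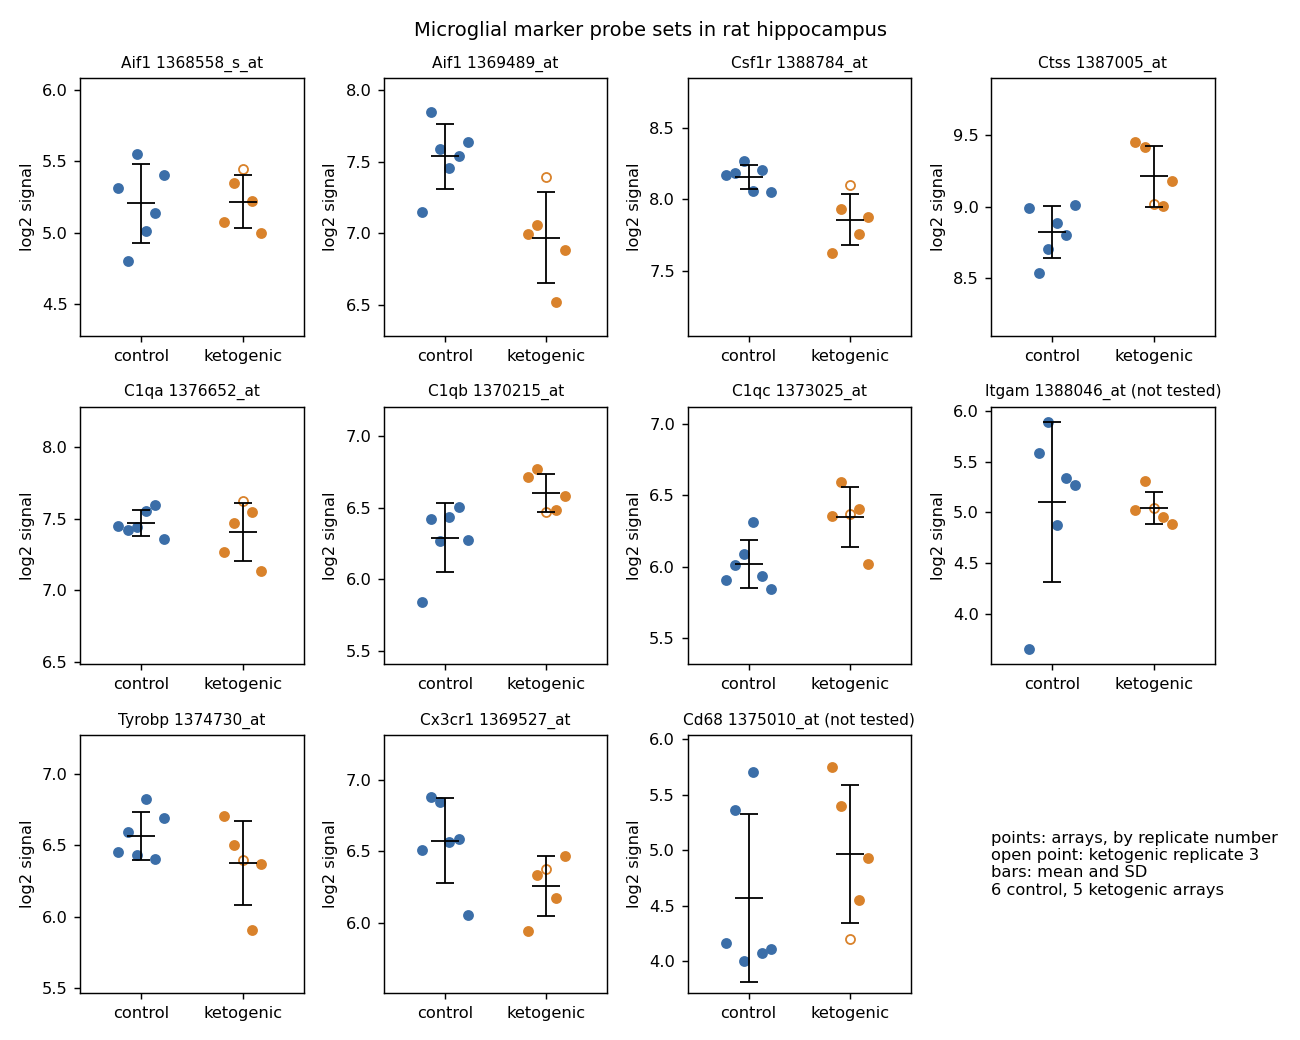
Log2 signal of each marker probe set on every array, with 1 panel per probe set, points in order of replicate number, and bars for the mean and SD of 6 control and 5 ketogenic arrays. Each panel has its own vertical position, and levels are not comparable between panels. Aif1 1369489_at and Csf1r lie lower and Ctss higher on the ketogenic diet, and the open point of ketogenic replicate 3 lies nearest the controls in the first 2 of these.

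Csf1r, the receptor for Csf1 and Il34 on which microglial survival depends, had control signals between 8.05 and 8.27 with a median of 8.18. On the ketogenic diet the 5 arrays read 7.62, 7.93, 8.10, 7.76 and 7.88 in order of replicate number. Replicate 3, at 8.10, lay among the controls, and the other 4 ketogenic arrays lay below every control. The mean fell from 8.15 ± 0.09 (SD, n = 6) to 7.86 ± 0.18 (SD, n = 5). The log2 fold change was -0.30 (SE 0.08, adjusted p = 0.0295, limma), a 1.23-fold lower signal with a 95% interval of 1.09 to 1.39. Its adjusted p was above 0.05 in 7 of 11 fits with 1 array left out, being 0.0516 to 0.0794 without control replicates 2, 3 and 5 and ketogenic replicates 1, 2, 4 and 5. Csf1, a ligand of the receptor, read 7.50 ± 0.21 (SD, n = 6) and 7.32 ± 0.23 (SD, n = 5) and was not called (log2 fold change -0.17, adjusted p = 0.324, limma). The other ligand, Il34, has no single-symbol probe set here.

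Cx3cr1 receives the chemokine that neurons present on their surface. Its control signals ran from 6.05 to 6.88 with a median of 6.58. The ketogenic arrays read 5.94, 6.33, 6.38, 6.17 and 6.47. Control replicate 6 was the lowest control, at 6.05, below 4 of the 5 ketogenic arrays. The difference of -0.32 (SE 0.14, 95% interval -0.62 to -0.0070) was not called (adjusted p = 0.142, limma). It was called lower on the values as deposited (-0.46, adjusted p = 0.0411), centred on the 75th percentile (-0.43, adjusted p = 0.0494), with the replicate number as a block (-0.42, adjusted p = 0.0321) and without control replicate 6 (-0.42, adjusted p = 0.0342). Only the control group has a replicate 6, so the block fit also draws no diet difference from that array. Its ligand gene Cx3cl1, which neurons express, went down from 10.20 ± 0.08 (SD, n = 6) to 9.97 ± 0.13 (SD, n = 5), a log2 fold change of -0.23 (SE 0.06, limma adjusted p = 0.0281).

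Aif1 encodes Iba1, the calcium-binding protein most often stained to show microglia. Its probe set 1369489_at read 7.15 to 7.85 on the control diet, with a median of 7.56. On the ketogenic diet it read 6.99, 7.06, 7.40, 6.52 and 6.89. The diets overlapped through control replicate 1, at 7.15, and ketogenic replicate 3, at 7.40. The mean fell from 7.54 ± 0.23 (SD, n = 6) to 6.97 ± 0.32 (SD, n = 5), a log2 fold change of -0.57 (SE 0.14, limma adjusted p = 0.0188). The signal was 1.48-fold lower, with a 95% interval of 1.20 to 1.83. Without ketogenic replicate 4, the lowest array, the difference was -0.45 and not called (adjusted p = 0.0519).

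The other Aif1 probe set, 1368558_s_at, gave no such difference. It read 4.81 to 5.55 on the control diet with a median of 5.23, and 5.07, 5.35, 5.45, 5.22 and 5.0 on the ketogenic diet. All these values lay near the testing level of 5.17. The log2 fold change was 0.01 (95% interval -0.36 to 0.39, adjusted p = 0.966, limma), and its sign changed with the scaling, at -0.17 on the values as deposited. The suffix of its name marks a probe set that can detect several related transcripts. Within an array, the log2 difference between the Aif1 probe sets changed by -0.47 from control to ketogenic diet on deposited values. It ran from 1.75 to 2.96 on the control diet and from 1.36 to 1.99 on the ketogenic diet. On quantile-normalized values it changed by -0.58, and without ketogenic replicate 3 by -0.52 on deposited values. This pair was picked after its values were seen, so these values are a description, with no p-value.

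Ctss, the protease cathepsin S that works in lysosomes and in antigen presentation, was the called member that rose. Control signals lay between 8.54 and 9.01 with a median of 8.84. The ketogenic arrays read 9.45, 9.41, 9.02, 9.003 and 9.18. Ketogenic replicate 4, at 9.003, and control replicate 6, at 9.009, overlapped, and every other ketogenic array lay above all controls. The mean rose from 8.82 ± 0.18 (SD, n = 6) to 9.21 ± 0.21 (SD, n = 5). Its log2 fold change was 0.39 (SE 0.10, adjusted p = 0.0225, limma), a 1.31-fold higher signal with a 95% interval of 1.13 to 1.53. It missed the threshold without ketogenic replicate 1 (0.33, adjusted p = 0.0566) and without ketogenic replicate 2 (0.34, adjusted p = 0.0641). It also missed it with no filter on dim probe sets (adjusted p = 0.0534). With the spike-in level as covariate, Ctss was at 0.42 to 0.58 (limma adjusted p = 0.0205 to 0.210) over 6 definitions of that level. It turned to -0.08 with RNA quality ratios as covariates (adjusted p = 0.962).

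Ctss and Csf1r were called in opposite directions. Their difference within each array is given as a description, with no p-value, because the pair was picked for that contrast. A common scaling factor of an array cancels in this difference. On deposited values Ctss minus Csf1r lay between 0.32 and 0.96 under the control diet and between 0.92 and 1.89 under the ketogenic diet. The groups overlapped through control replicate 6 and ketogenic replicate 3. The means were 0.64 ± 0.25 (SD, n = 6) and 1.43 ± 0.36 (SD, n = 5).

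**Figure D2:**
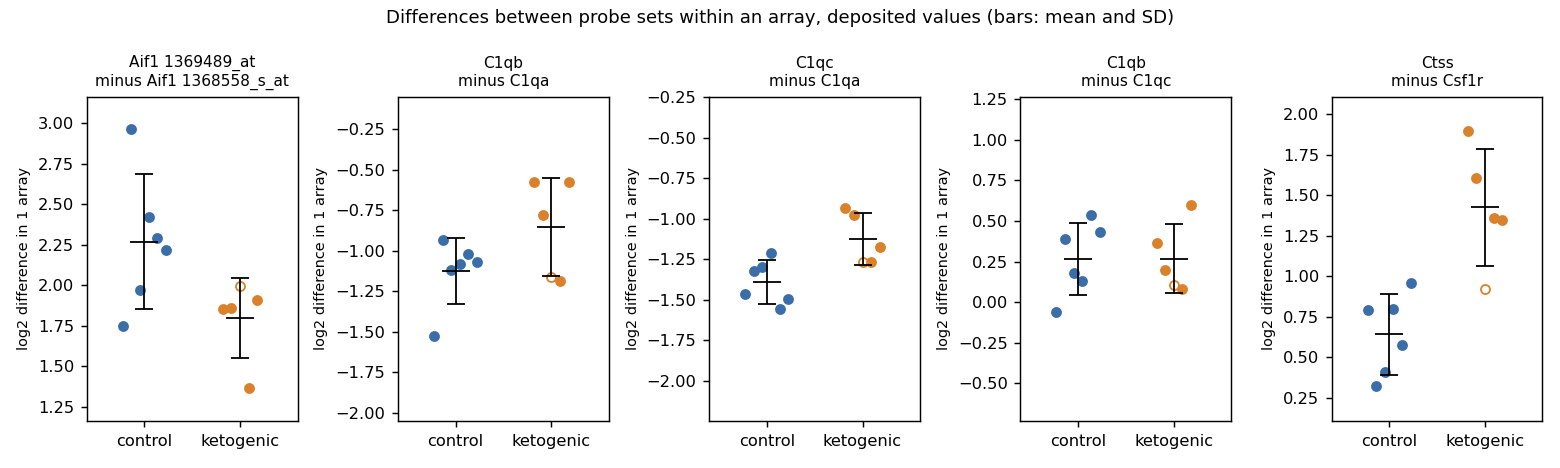
Log2 difference between 2 marker probe sets within each array on deposited values, with 1 point per array, the open point for ketogenic replicate 3, and bars for the mean and SD. The Ctss minus Csf1r values have a mean of 0.64 on control and 1.43 on ketogenic arrays, while the C1qb minus C1qc values have means of 0.27 on both diets.

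The 3 C1q genes encode the chains that assemble into the C1q molecule, and in the RefSeq gene table of assembly GRCr8 they are neighbours on chromosome 5, in the order C1qb, C1qc, C1qa. C1qb read 5.84 to 6.50 with a median of 6.35 on the control diet. The ketogenic arrays read 6.71, 6.77, 6.47, 6.48 and 6.58. Control replicate 1, at 5.84, stood below the other controls, and 3 ketogenic arrays lay above every control. The log2 fold change of C1qb was 0.31 (SE 0.12, 95% interval 0.054 to 0.57), with an unadjusted p of 0.0211 and an adjusted p of 0.0881 in limma.

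C1qc was not called either. Its control signals were 5.84 to 6.31 with a median of 5.98, and its ketogenic arrays read 6.36, 6.59, 6.37, 6.41 and 6.02. All ketogenic arrays but replicate 5 lay above every control. For this gene the log2 fold change was 0.33 (SE 0.12, 95% interval 0.071 to 0.59, adjusted p = 0.0758, limma), and it was called without ketogenic replicate 5 (0.41, adjusted p = 0.0429). The differences of C1qb and C1qc depended on the scaling, at 0.17 and 0.16 on the values as deposited. With the mean of 9 spike-in probe sets as covariate C1qc was at 0.033 (adjusted p = 0.949, limma) and C1qb at 0.39 (adjusted p = 0.402). With the mean of all bacterial control probe sets instead, C1qc was at 0.31 (adjusted p = 0.151, limma) and C1qb at 0.29 (adjusted p = 0.174).

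C1qa, the remaining chain, read 7.36 to 7.60 with a median of 7.45 on the control diet, and 7.27, 7.47, 7.63, 7.55 and 7.14 on the ketogenic diet. The ketogenic arrays spread on both sides of the controls. Its difference was -0.06 (95% interval -0.26 to 0.14, adjusted p = 0.686, limma). Within an array, C1qc minus C1qa changed by 0.27 on deposited values and by 0.39 on quantile-normalized values. The deposited differences ran from -1.56 to -1.21 on the control diet and from -1.27 to -0.94 on the ketogenic diet. For C1qb minus C1qa the change was 0.27 on deposited values, and for C1qb minus C1qc it was 0.0019. These pairs too were picked after their values were seen, and are described with no p-value.

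Promoters of Ctss, the member that rose, and of C1qa and C1qb, chains of 1 molecule from the same gene cluster, are shown to let their sequences be compared. Each run is the 250 bases before the annotated start in GRCr8, read from RefSeq. Capitals mark GGAAG, the core of sites for ETS factors such as the macrophage regulator PU.1, its longer form GAGGAAG, which contains GGAAG, and an IRF-like motif, GAAA and GAAA with any 2 bases between, on either strand.
Ctss, chr2:185775146-185775395, plus strand: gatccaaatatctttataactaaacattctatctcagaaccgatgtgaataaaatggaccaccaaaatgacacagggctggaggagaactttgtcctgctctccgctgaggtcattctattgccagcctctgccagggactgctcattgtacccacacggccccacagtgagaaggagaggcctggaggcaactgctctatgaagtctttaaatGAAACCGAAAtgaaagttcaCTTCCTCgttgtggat
C1qa, chr5:154419934-154420183, minus strand: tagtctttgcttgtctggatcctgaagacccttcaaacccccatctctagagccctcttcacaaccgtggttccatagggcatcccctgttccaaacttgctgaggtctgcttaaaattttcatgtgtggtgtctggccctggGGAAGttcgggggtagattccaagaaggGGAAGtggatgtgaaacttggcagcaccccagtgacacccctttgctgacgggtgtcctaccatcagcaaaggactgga
C1qb, chr5:154407828-154408077, minus strand: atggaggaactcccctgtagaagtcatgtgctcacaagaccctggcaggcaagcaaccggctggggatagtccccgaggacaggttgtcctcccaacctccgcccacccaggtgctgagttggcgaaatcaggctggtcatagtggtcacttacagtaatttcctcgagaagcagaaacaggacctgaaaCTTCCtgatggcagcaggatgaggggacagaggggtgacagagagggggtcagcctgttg

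Of the 10 genes, 7 matched a promoter entry: Itgam, Ctss, C1qa, C1qb, Cx3cr1, Cd68 and Csf1r. GGAAG was present in all 7 windows, and in 63.3% of 27457 rat promoters of the same length. GAGGAAG was present in 3 of the 7, those of Itgam, Ctss and Csf1r, and in 10.1% of all. The IRF-like motif was present in 1, that of Ctss, and in 3.29% of all. In Ctss it lies 36 to 27 bases before the start, followed on the other strand by GAGGAAG at 16 to 10 bases before it. TATAAA was present in 1 window, that of Ctss on the opposite strand, and in 13.1% of all. A match describes letters in these windows and does not show binding.

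Tyrobp, the adaptor also known as DAP12, read 6.41 to 6.82 on the control diet with a median of 6.52. The ketogenic arrays read 6.71, 6.50, 6.40, 5.91 and 6.37. Ketogenic replicate 4 was the lowest of all arrays, and ketogenic replicate 1 was higher than 5 of the 6 controls. The log2 fold change of -0.19 (SE 0.13, 95% interval -0.47 to 0.093) was not called (adjusted p = 0.333, limma). It was -0.071 without ketogenic replicate 4, -0.34 on the values as deposited and -0.49 with RNA quality ratios as covariates, and was called in none of these. Trem2, the receptor that signals through this adaptor, has no single-symbol probe set here.

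The probe sets of Itgam and Cd68 were too dim to be tested. Itgam, the alpha chain of complement receptor CR3, read 3.65 to 5.89 on the control diet with a median of 5.30, and 5.02, 5.31, 5.04, 4.96 and 4.89 on the ketogenic diet. The low end was control replicate 1, whose deposited signal was 13.02 against 30.6 to 63.2 on the other controls. In a fit with no filter its log2 fold change was -0.06 (SE 0.34, adjusted p = 0.937, limma). Cd68, a glycoprotein of phagocyte lysosomes, was 4.003 to 5.70 with a median of 4.14 on the control diet and 5.75, 5.40, 4.20, 4.55 and 4.93 on the ketogenic diet. Control replicates 2 and 4 stood above the other 4 controls. With no filter the Cd68 log2 fold change was 0.39 (SE 0.40, adjusted p = 0.549, limma), an interval of -0.48 to 1.27. The beta chain gene of the Itgam receptor, Itgb2, has no single-symbol probe set here.

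**Figure D3:**
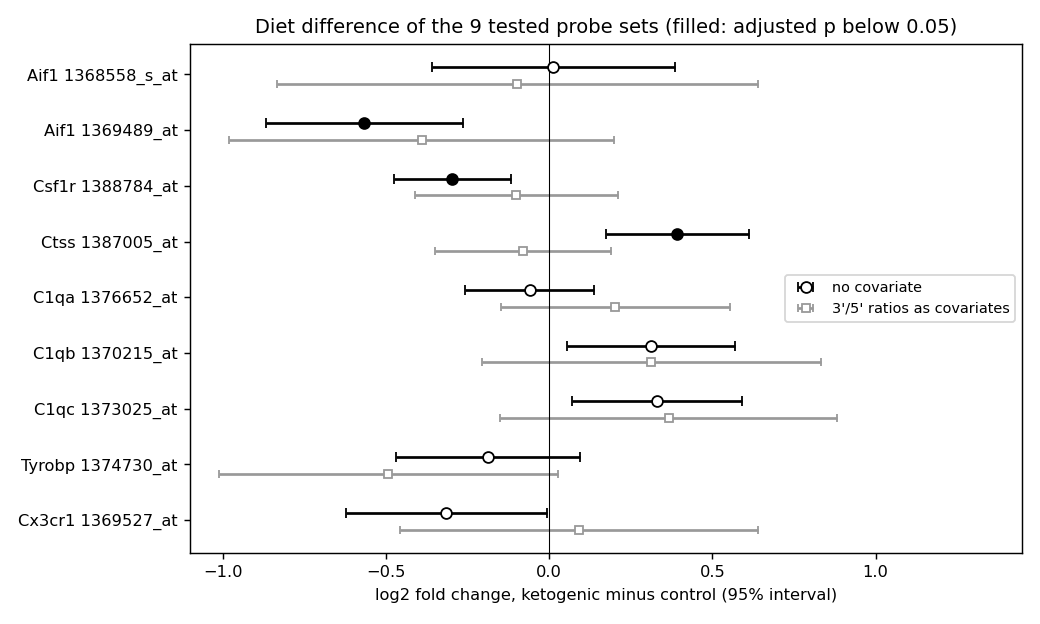
Log2 fold change, ketogenic minus control diet, of the 9 tested marker probe sets with 95% intervals from limma. Black symbols are the fit with no covariate (filled where the adjusted p was under 0.05), and grey symbols are the fit with the Gapdh and actin ratios of 3 prime to 5 prime signal as covariates, in which Ctss is at -0.08 and Csf1r at -0.10.

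Measures of whole arrays moved with the diet. The log2 ratio of 3 prime to 5 prime control probe sets, a measure of RNA quality that increases with degradation, ran from -0.068 to 0.15 for Gapdh in the control group. In the ketogenic group it ran from 0.13 to 0.34. For actin it was 0.49 to 0.75 and 0.75 to 0.99. The mean level of 9 hybridisation spike-in probe sets lay between 8.53 and 8.86 for the control diet and between 8.92 and 9.23 for the ketogenic diet, and array medians of the deposited signal were 89.2 to 94.2 and 79.9 to 87.9. When both RNA quality ratios entered the fit as covariates, 0 of the 9 marker probe sets were called (0 at an unadjusted p under 0.05, limma), and 6 of all tested probe sets were. At that unadjusted p 767 of all tested probe sets passed, or 6.45%. In that fit Ctss was at -0.08 (95% interval -0.35 to 0.19), Csf1r at -0.10 (-0.41 to 0.21) and Aif1 1369489_at at -0.39 (-0.98 to 0.20). The interval of Ctss there does not reach the 0.39 of the fit without covariates. The actin ratios did not overlap between the diets, so RNA quality and diet cannot be told apart in that fit. The median SE over all probe sets was 0.11 without and 0.20 with these covariates. When the spike-in level was the covariate instead, again 0 passed (2 at an unadjusted p under 0.05), with Ctss at 0.50, Csf1r at -0.32 and Aif1 1369489_at at -0.68. With that level as covariate 63 of all 11899 tested probe sets were called, and 2380 had an unadjusted p under 0.05 (limma). Under 6 definitions of that level, from different control probe sets, 0 to 3 marker probe sets were called. No scan or extraction batch is labelled, and whether array quality contributed to the differences was not tested.

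Ketogenic replicate 3 lay among or nearest the controls for Csf1r and Aif1 1369489_at. Without it, the differences of the called members were -0.36 for Csf1r (adjusted p = 0.00537), -0.67 for Aif1 1369489_at (adjusted p = 0.00307) and 0.44 for Ctss (adjusted p = 0.009), by limma, and the same count of 3 marker probe sets was called.

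The markers varied little in common within a diet. After each diet's mean was subtracted, the 36 pairs of tested marker probe sets had Pearson correlations over the 11 arrays with a median of 0.081, and 24 were positive. The range was -0.66 to 0.68. Over all pairs of genes the median was 3.5e-05, with 90% of pairs between -0.58 and 0.58. The highest value was between the receptors Csf1r and Cx3cr1, at 0.68, and next was C1qa with C1qc, at 0.60. The lowest was between Ctss and Cx3cr1, at -0.66. For the Aif1 probe sets it was 0.012. These values share arrays and scaling and are given as descriptions.

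By the same measure, the genes most like the mean of the 9 standardized marker probe sets were Enoph1, an enzyme of methionine salvage (r = 0.92 over 11 arrays), the ribosomal gene Rpl26 (0.90), Ms4a6bl1 (0.89), Naa12 (0.89) and the neuronal RNA-binding protein gene Elavl4 (0.88). On deposited values Rpl26 was at 0.65, and rank 1 was Ms4a6bl1, at 0.92. They are the highest of many genes over few arrays, and are given as descriptions.

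Other microglial markers were listed to set beside the members. Of 25 tested genes, 1 rose and 4 fell, with a median log2 fold change of -0.10, against 743 higher and 675 lower of 8397 genes, or 16.9% called (8.85% higher and 8.04% lower). Rnase4, a secreted ribonuclease that other brain cells also make, rose by 0.71 (SE 0.17, adjusted p = 0.0171), and its other probe set rose by 0.56. P2ry6, a receptor for UDP that drives phagocytosis, fell by 0.53 (adjusted p = 0.0291), Cd48 by 0.70 (adjusted p = 0.0191), Arhgdib by 0.35 (adjusted p = 0.0194) and Ly86, a partner of a Toll-like receptor, by 0.48 (adjusted p = 0.0482), all by limma. For markers that are more specific to microglia than to other leucocytes, P2ry12 was at 0.19 (adjusted p = 0.315) and Tmem119 at -0.12. The other P2ry12 probe set was at 0.033. Both genes were picked after their values were seen and do not stand for the list. Of its 25 tested genes, 10 had a positive sign. Slc2a5 of the same list was at -0.34 (adjusted p = 0.0562, limma) and Olfml3 at -0.14. Ptprc, the leucocyte antigen CD45, was too dim to be tested on both of its probe sets. The counts were 1 higher and 7 lower on the values as deposited, 2 and 7 without ketogenic replicate 3, and 0 and 0 with the 3 prime to 5 prime covariates. Over all genes these settings gave 792 and 1216 of 8395, 1132 and 1125 of 8397, and 0 and 1 of 8397.

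**Figure D4:**
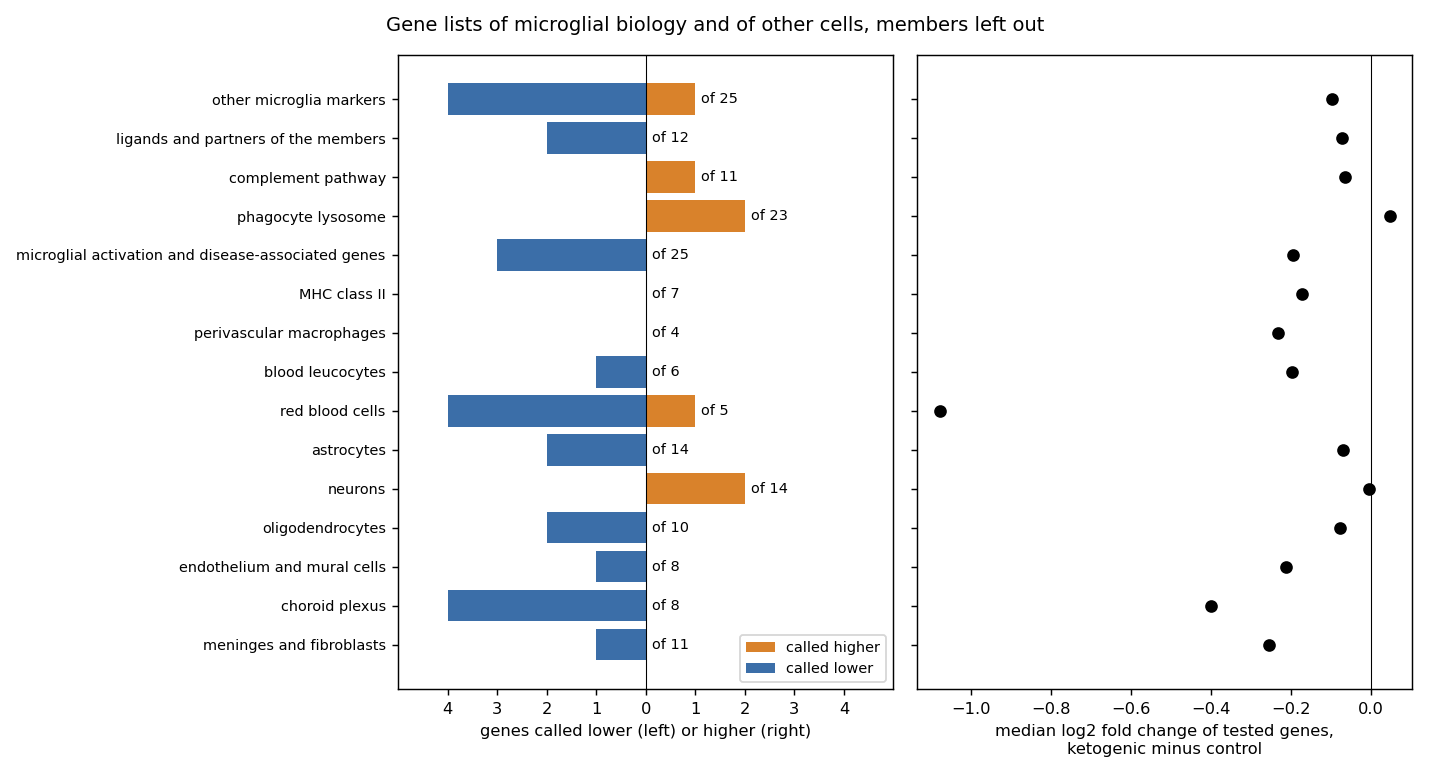
Left, the number of genes called lower or higher on the ketogenic diet in each list, with the number tested, and right, the median log2 fold change of the tested genes of the list. Choroid plexus and red blood cell markers stand lowest, with medians of -0.40 and -1.08. Phagocyte lysosome genes are at 0.048, the one positive median shown, on quantile-normalized values with all arrays and no covariate. Neurons are at 0.14 on deposited values and at 0.020 without ketogenic replicate 3.

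Ligands and partners of the members had 2 called of 12 tested genes, or 16.7% beside the 16.9% of all genes. Both were lower, Cx3cl1 and the fibrinogen chain gene Fgg. Cd47 was not called on its brightest probe set (0.17), while its other probe set was higher (0.39, adjusted p = 0.0217, limma). Under both other scalings (deposited values, or arrays centred at their 75th percentile) 2 genes of the list were higher and 2 lower. Of 8395 genes, these scalings gave 792 higher and 1216 lower, and 991 higher and 959 lower. The median of the ligand and partner list was -0.07, and it was 0.01 when arrays were centred on the 75th percentile. In the complement pathway 1 of 11 tested genes was called, or 9.09%, and on the values as deposited 1 was higher and 2 lower. C1r, the protease that pairs with C1q, rose by 0.72 (SE 0.15, adjusted p = 0.00923, limma) and its diets did not overlap, but its control mean of 4.95 lay below the testing level, so it was tested only through its ketogenic values. C1s, its partner protease, was at -0.02, and C3, the central component, at 0.02 (adjusted p = 0.937). Masp1 of the same list was not called on its brightest probe set (-0.09, adjusted p = 0.415, limma). Another of its probe sets was called lower (-0.61, adjusted p = 0.00516, limma), so C1r was not the only complement gene with a called probe set.

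Genes of the phagocyte lysosome, the compartment of Ctss and Cd68, had 2 higher and 0 lower of 23 tested (5 and 1 at an unadjusted p under 0.05, limma), with a median of 0.048. All genes had 1445 higher and 1400 lower of 8397 at that unadjusted p. The 8.70% called lies below the 16.9% of all genes. The counts were 1 higher and 1 lower on the values as deposited, 2 and 2 without ketogenic replicate 3, and 0 and 0 with RNA quality ratios as covariates. Scarb2, a lysosomal membrane receptor, rose by 0.57 (adjusted p = 0.0334), and Hexa, a subunit of beta-hexosaminidase, by 0.38 (adjusted p = 0.0401). Other cathepsins were not called, with Ctsz at 0.32, Ctsk at 0.36, Ctsb at 0.11, Ctsl at 0.16 and Ctsd at -0.10.

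Genes of microglial activation and disease states had 0 higher and 3 lower of 25 tested (2 and 5 at an unadjusted p under 0.05, limma), with a median of -0.20. All genes had 1445 higher and 1400 lower of 8397 at that unadjusted p. The 12% called lies below the 16.9% of all genes. On the values as deposited 1 was higher and 7 lower, and with RNA quality ratios as covariates 0 and 0. Tlr4, the receptor for bacterial lipopolysaccharide, fell by 0.93 (adjusted p = 0.0131), with a ketogenic mean of 4.89 below the testing level. Socs3, an inhibitor of cytokine signalling that several cell types express, fell by 0.67 (adjusted p = 0.0267), and Tspo, the ligand target used to image activated glia, by 0.39 (adjusted p = 0.0385). The cytokine genes Il1b and Il1a were at -0.05 and -0.03. MHC class II genes had 0 called of 7 tested (1 at an unadjusted p under 0.05, lower), with RT1-DMb at -0.21 (adjusted p = 0.0729).

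Markers of cells that share genes with microglia, or lie beside them, moved as follows. Perivascular macrophage markers had 0 called of 4 tested (0 at an unadjusted p under 0.05, limma), all negative, with F13a1 at -0.24. All genes had 1445 higher and 1400 lower of 8397 at that unadjusted p. The summed level of the perivascular list, as a mean log2 difference from the control mean, ran from -0.15 to 0.19 for the control diet and from -0.54 to -0.092 for the ketogenic diet. Blood leucocyte markers had 1 lower of 6, or 16.7% beside the 16.9% of all genes. It was Lck, a T cell kinase, at -0.46. Summed levels of the leucocyte list were -0.20 to 0.12 on control and -0.35 to -0.15 on ketogenic arrays. Red blood cell markers had 100% called. Of 5, 4 were lower, Hbb at -3.16, Hba-a3 at -1.11, Slc4a1 at -0.64 and Alas2 at -1.08, and 1 higher, Bpgm at 0.34. The other Slc4a1 probe set was not called (-0.10, adjusted p = 0.686, limma). Alas2 had a ketogenic mean of 4.95, below the testing level. Summed levels of this list were -0.23 to 0.14 and -1.42 to -0.95. Their part in the results on microglial markers was not tested.

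Of the astrocyte markers, 2 of 14 fell, Aqp4 by 0.33 and Gfap by 0.39. That is 14.3% called, beside the 16.9% of all genes. Other Aqp4 probe sets, at -0.27 and -0.14, were not called. Glul and Slc1a3 were not called on their brightest probe sets, at -0.0016 and 0.23. Other probe sets were called lower for Glul (-0.46 and -0.37, adjusted p = 0.0302 and 0.0403, limma) and Slc1a3 (-0.29, adjusted p = 0.0427, limma). The direction of the astrocyte calls depended on the scaling. They were 2 higher and 2 lower on the values as deposited, and 2 higher and 0 lower centred on the 75th percentile. Of 8395 genes, these settings gave 792 higher and 1216 lower, and 991 higher and 959 lower. Choroid plexus markers had 4 lower of 8 (50% called), Aqp1, Cldn2, Folr1 and Igfbp2, of which Cldn2 had a ketogenic mean of 4.98, below the testing level. This list had summed levels of -0.26 to 0.56 on control and -0.82 to -0.15 on ketogenic arrays. Neuronal markers had 2 higher of 14 (14.3% called), Camk2a and Uchl1. On the values as deposited 7 of the 14 were higher, beside 792 of 8395 genes. Other Camk2a probe sets, at 0.23 and 0.16, were not called (adjusted p = 0.282 and 0.303, limma). Stmn2, not called on its brightest probe set, was called lower on its other (-0.22, adjusted p = 0.0145, limma). In the other lists 2 of 10 oligodendrocyte markers fell (20%), Mag and Ugt8. So did 1 of 8 endothelial and mural markers (12.5%), Slco1a4, and 1 of 11 of meninges and fibroblasts (9.09%), Col1a1. Other probe sets of Slco1a4 (-0.14) and Col1a1 (-0.34) were not called. Cnp and Cldn11, not called on their brightest probe sets, were called lower on their others (-0.39 and -0.45, adjusted p = 0.0378 and 0.0212, limma). On the values as deposited the counts of genes called lower were 2, 4 and 3 in the oligodendrocyte, endothelial and meningeal lists. Their part in the marker values was not tested either.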

How the data were processed

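Total RNA of 11 hippocampus samples was measured on a 1-colour array. The authors deposited linear probe set intensities, 1 column per array, and how they were made from images is not given in the sources used here. Array medians of log2 values spanned 0.24, above a limit of 0.1, so the intensities were quantile-normalized between arrays, set to at least 5.02 (the 5th percentile) and taken to log2. The 57 control probe sets and the 25% with the lowest means were left out, which kept 11899. Each probe set was fitted in limma (version 3.58.1, R 4.3.3) by lmFit, then eBayes with trended variances, as a two-sided test of diet, checked on simulated data. The number of arrays limits the precision.

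Gene symbols came from the platform annotation, updated by gene identifier to RefSeq GRCr8. Of the array's probe sets 12789 had 1 symbol and 312 several. Where a listed gene had several tested probe sets, the brightest by mean was read. Every member is named. From each of 15 lists up to 4 called genes with the smallest p were named, or, with none called, the gene with the smallest p, and a fixed set (Csf1, Il34, Cx3cl1, Trem2, Itgb2, C3, Ptprc, Gfap and Hbb). Ly86, P2ry12, Tmem119, C1s, Ctsz, Ctsk, Ctsb, Ctsl, Ctsd, Il1a, Il1b, Bpgm, Masp1 and Cd47 were chosen after their values were seen. So were Slc2a5, Olfml3, Glul, Slc1a3, Stmn2, Cnp and Cldn11. Members, lists and settings were chosen with earlier results of these data known. The 5 within-array differences were picked after seeing the data, so their exact permutation tests are not reported. The planned spike-in covariate did not name its probe sets, so 6 definitions were run.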

Additional observations from a re-analysis of the deposited data

Results flagged for a closer look

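Among 98 groups of values from 1 diet, 6 held an array far from the others of its group, where chance gives about 1 in 20 groups. One was a microglial marker: C1qb was at 5.84 on control replicate 1, against 6.27 to 6.50 on the other controls. Csf1 was at 6.92 on ketogenic replicate 2, against 7.32 to 7.48. Tlr4 was at 5.62 on control replicate 2, against 5.81 to 5.91. Socs3 was at 5.03 on ketogenic replicate 3, against 6.04 to 6.14 on the other ketogenic arrays. Uchl1 was at 10.67 on control replicate 2, against 10.18 to 10.36, and Naa12 was at 8.63 on control replicate 1, against 8.77 to 8.85.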

How the results depend on the processing

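Over all probe sets 1962 were called, and 3136 with array weights, 910 with the mean of all bacterial control probe sets as a covariate, 63 with the planned spike-in covariate, 6 with the 3 prime to 5 prime covariates and 3070 at a threshold of 0.1. With 1 array left out the count ran from 797 (without ketogenic replicate 4) to 3163 (without ketogenic replicate 3). Of the marker probe sets 3 were called, and 0 with the 3 prime to 5 prime covariates, 0 with the spike-in covariate and 5 at a threshold of 0.1. With 1 array left out it was 1 (without ketogenic replicate 1, 2 or 4) to 4 (without control replicate 6). The spike-in plan did not name its probe sets, and its 6 definitions, all examined, gave 28 to 2458 calls. The 28 came from the r2 Bacillus probe sets, whose mean log2 level lay near the floor of 2.33. That level was 3.29 to 3.65 on control and 2.71 to 3.31 on ketogenic arrays. The cause of these changes was not tested.

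The Aif1 probe set 1368558_s_at, near 0, turned to -0.17 as deposited, -0.14 centred on the 75th percentile, -0.0052 with array weights, -0.098 with the 3 prime to 5 prime and -0.24 with the spike-in covariate, and ran from -0.067 to 0.082 with 1 array left out. The 3 prime to 5 prime covariates also turned C1qa to 0.20, Ctss to -0.080 and Cx3cr1 to 0.090. C1qa ran from -0.11 to 0.0087 with 1 array left out. C1qb minus C1qc was -0.018 on quantile-normalized values.

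The labels number the replicates in both diets, but same-numbered arrays did not deviate together (r from 0.0089 to 0.077 over 5 pairs, and 2 of 5 correlated best with their own number). With the replicate number as a block 1816 probe sets and 4 marker probe sets were called, the added one being Cx3cr1. That fit draws no diet difference from control replicate 6, which has no ketogenic array of its number. Cx3cr1 was also called when that array was left out. Probe sets near the background, as for Itgam and Cd68, limit what can be measured.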
